A study of Homo sapiens with 12 samples.

Results

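The circadian clock genes of U-87 MG cells were examined under hypoxia, together with the hypoxia-associated clock repressors BHLHE40 and BHLHE41. The set comprised 10 genes of the 20263 in the deposited table: BHLHE40, BHLHE41, PER1, PER2, PER3, CRY1, CRY2, CLOCK, NR1D1 and DBP. Each was found by matching its Ensembl identifier to its symbol. The match used no measured values, but the set was chosen with earlier results of these data known. U-87 MG is an established human glioblastoma cell line. Messenger RNA was sequenced from 12 libraries of these cells after 72 h in 1% O2, in 4 groups of 3. The groups were cells carrying an empty vector (vector), cells with knockout of HIF1α (HIF1α-ko), cells with knockout of HIF2α (HIF2α-ko) and cells with knockout of both (HIF1α/2α-ko, called the dual knockout below). All 4 groups were hypoxic, so each difference below compares genotypes within hypoxia. Every library has the same hypoxia time, and the labels give no hour of harvest and no synchronisation of the cells. For genes that cycle, a change in level and a shift in phase therefore cannot be told apart here. The hypoxia time is that of the series design, and the study's methods give a shorter one for mRNA detection in general. The sources used here do not say how the knockouts were made, whether each was 1 clone or a pool, or whether the 3 libraries of a group came from separate cultures. The p-values therefore measure only the spread between these libraries, which may be technical. A difference between clones or cultures cannot be told apart from an effect of the knockout.

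The mammalian clock is a transcriptional feedback loop. CLOCK, or its relative NPAS2, pairs with BMAL1 and activates genes through E-boxes. Among those genes are the PER and CRY repressors, which return to inhibit CLOCK and BMAL1, and the nuclear receptors NR1D1 and NR1D2, which repress BMAL1 in competition with the ROR activators. DBP is an output factor whose transcription follows the E-box arm closely. BHLHE40 (also called DEC1) and BHLHE41 (DEC2) are basic helix-loop-helix repressors that bind the same E-boxes, and both are known as hypoxia-inducible targets of HIF. HIF is itself a relative of CLOCK and BMAL1, since its α subunits and ARNT belong to the same bHLH-PAS family of transcription factors.

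Expression was given as TPM, an abundance already normalised for transcript length and library size, so sequencing depth is unknown. Within groups, libraries correlated at Pearson r of 0.966 to 0.992 across the 11731 genes tested. The targeted genes were reduced but not absent: HIF1A averaged 124 ± 23.5 TPM in vector and 48.5 ± 9.35 TPM in HIF1α-ko, and EPAS1, which encodes HIF2α, averaged 322 ± 31.5 TPM in vector and 107 ± 17.0 TPM in HIF2α-ko (SD, n = 3). In the dual knockout they averaged 75.5 ± 11.9 and 117 ± 14.4 TPM. HIF1A, not targeted in HIF2α-ko, averaged 86.8 ± 18.1 TPM there, and its libraries overlapped with those of the dual knockout. Neither targeted gene was called different between those groups. EPAS1, not targeted in HIF1α-ko, averaged 265 ± 20.2 TPM there. Between the dual knockout and HIF1α-ko, limma called HIF1A higher and EPAS1 lower in the dual knockout. The call of HIF1A was lost with median ratio scaling and with quantile normalization. The mesenchymal glioma markers VIM, CD44, FN1 and CHI3L1 all exceeded 100 TPM in every library, whereas 3 of 9 glioma markers, the astroglial genes GFAP and S100B and the neural stem cell gene SOX2, stayed below 1 TPM throughout. Of 4 immune markers, 3 stayed below 1 TPM in every library, the pan-leukocyte gene PTPRC among them at no more than 0.0330 TPM, whereas the lysosomal macrophage marker CD68 stood at 587.2 to 1633 TPM. The part of CD68 in the results was not tested. In such bulk samples, fewer cells of a type and less RNA per cell cannot be told apart.

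The 250 bases before the start of transcription are shown for BHLHE40 and BHLHE41, the pair known to respond to hypoxia, and for NR1D1 and CRY1, because the study asks about HIF and HIF binds a short core. All 10 members matched a RefSeq promoter (GRCh38.p14). For each gene 1 RefSeq start was used and any other start was not searched, so the matches depend on that choice. The windows of BHLHE40, PER1, PER2 and CRY1 lie inside the bounds of their genes in GENCODE 29. For PER3 the bases after the start were not found in a GENCODE 29 transcript. The HIF core was searched as ACGTG or GCGTG and the canonical E-box as CACGTG, both on both strands; capitals mark the HIF cores. Every CACGTG contains the HIF core on each strand, so the searches overlap.
BHLHE40, chr3:4979187-4979436, plus strand: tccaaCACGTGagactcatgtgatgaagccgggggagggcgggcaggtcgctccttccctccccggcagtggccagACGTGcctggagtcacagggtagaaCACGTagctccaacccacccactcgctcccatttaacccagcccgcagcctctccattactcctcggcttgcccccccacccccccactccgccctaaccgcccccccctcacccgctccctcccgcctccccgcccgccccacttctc
BHLHE41, chr12:26125038-26125287, minus strand: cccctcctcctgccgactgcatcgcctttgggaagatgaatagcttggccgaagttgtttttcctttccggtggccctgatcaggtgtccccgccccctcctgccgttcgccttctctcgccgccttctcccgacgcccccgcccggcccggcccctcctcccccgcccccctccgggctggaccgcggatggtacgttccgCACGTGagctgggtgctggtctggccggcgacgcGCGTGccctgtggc
NR1D1, chr17:40100590-40100839, minus strand: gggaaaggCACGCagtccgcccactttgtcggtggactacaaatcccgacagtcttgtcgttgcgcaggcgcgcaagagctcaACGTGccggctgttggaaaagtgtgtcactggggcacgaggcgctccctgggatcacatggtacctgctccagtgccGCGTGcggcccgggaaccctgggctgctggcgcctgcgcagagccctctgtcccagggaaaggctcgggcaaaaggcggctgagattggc
CRY1, chr12:107093550-107093799, minus strand: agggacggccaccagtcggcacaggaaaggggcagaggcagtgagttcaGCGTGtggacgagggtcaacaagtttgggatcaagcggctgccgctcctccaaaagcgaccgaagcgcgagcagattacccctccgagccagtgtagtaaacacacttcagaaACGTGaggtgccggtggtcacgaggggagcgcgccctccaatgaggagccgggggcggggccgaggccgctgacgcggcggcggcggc

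Upstream of BHLHE40 the cores began at -245, -244, -174 and -149 from the start, and the first 2 lay within an E-box. BHLHE41 carried its E-box nearer to the start, at -48, and a separate core at -14. NR1D1 held 3 cores and no E-box, and CRY1 held 2 cores and no E-box. Across the set, 8 of 10 members had at least 1 HIF core in this window, compared with 43.2% of 35116 promoters. CRY2 and CLOCK were the members without one. The E-box was present in 3 of 10 members, BHLHE40, BHLHE41 and PER1, compared with 6.34% of promoters. The motif AGGTCA, which REV-ERB and ROR receptors read, was found in PER1 and CRY2, that is in 2 of 10 members compared with 12.1% of promoters. These matches describe letters in a window and not occupied sites.

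**Figure D1:**
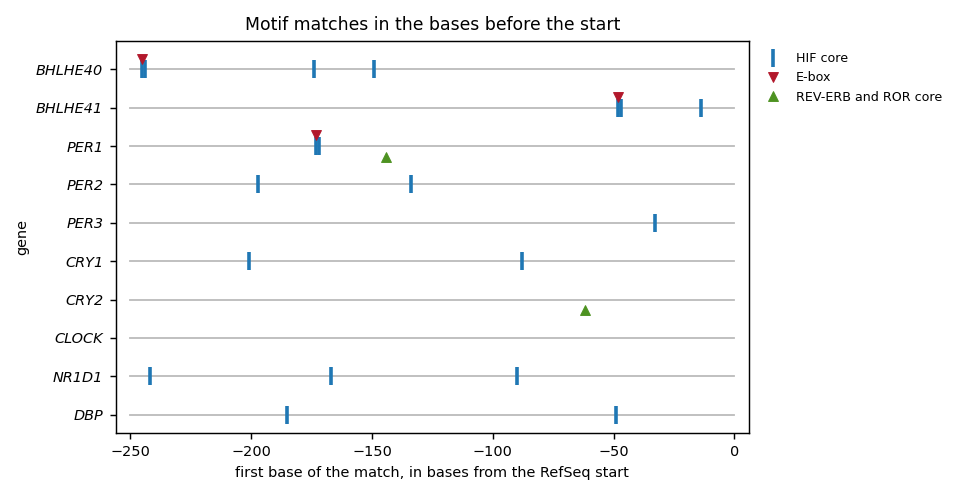
Motif matches in the 250 bases before the RefSeq start of each member. The x axis is the first base of the match in bases from the start, blue bars are HIF cores, red triangles E-boxes and green triangles AGGTCA. BHLHE40 has 4 HIF core matches and BHLHE41 has 3, and each count includes its E-box on both strands. NR1D1 has 3, and CRY2 and CLOCK have none.

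BHLHE40 was by far the most abundant of these transcripts, and CRY1 and CLOCK were close to the limit of what was measured. In vector, BHLHE40 ranked 191 of 20263 genes by mean TPM, NR1D1 ranked 939, and PER1 ranked 2939. Descending mean TPM in vector placed BHLHE40 first at 844, then NR1D1 at 134, PER1 at 33.6, BHLHE41 at 28.6, DBP at 23.4, CRY2 at 12.5, PER3 at 4.70, PER2 at 4.36, CRY1 at 0.900 and CLOCK at 0.748. Neighbours whose libraries overlapped in this order were PER1 with BHLHE41, BHLHE41 with DBP, PER3 with PER2, and CRY1 with CLOCK. BHLHE40, NR1D1 and PER1 kept the first 3 places in all 4 groups. BHLHE41 ranked above DBP and CRY2 in vector but below both in HIF1α-ko and in the dual knockout, and CRY1 stood above PER2 in the dual knockout alone. CLOCK reached 1 TPM in 3 of 12 libraries and CRY1 in 8 of 12, while the other members did so in all 12. Both passed the expression filter of 1 TPM in at least 3 libraries, and for them the fold changes below understate the change because 1 was added to each TPM before taking logarithms.

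**Figure D2:**
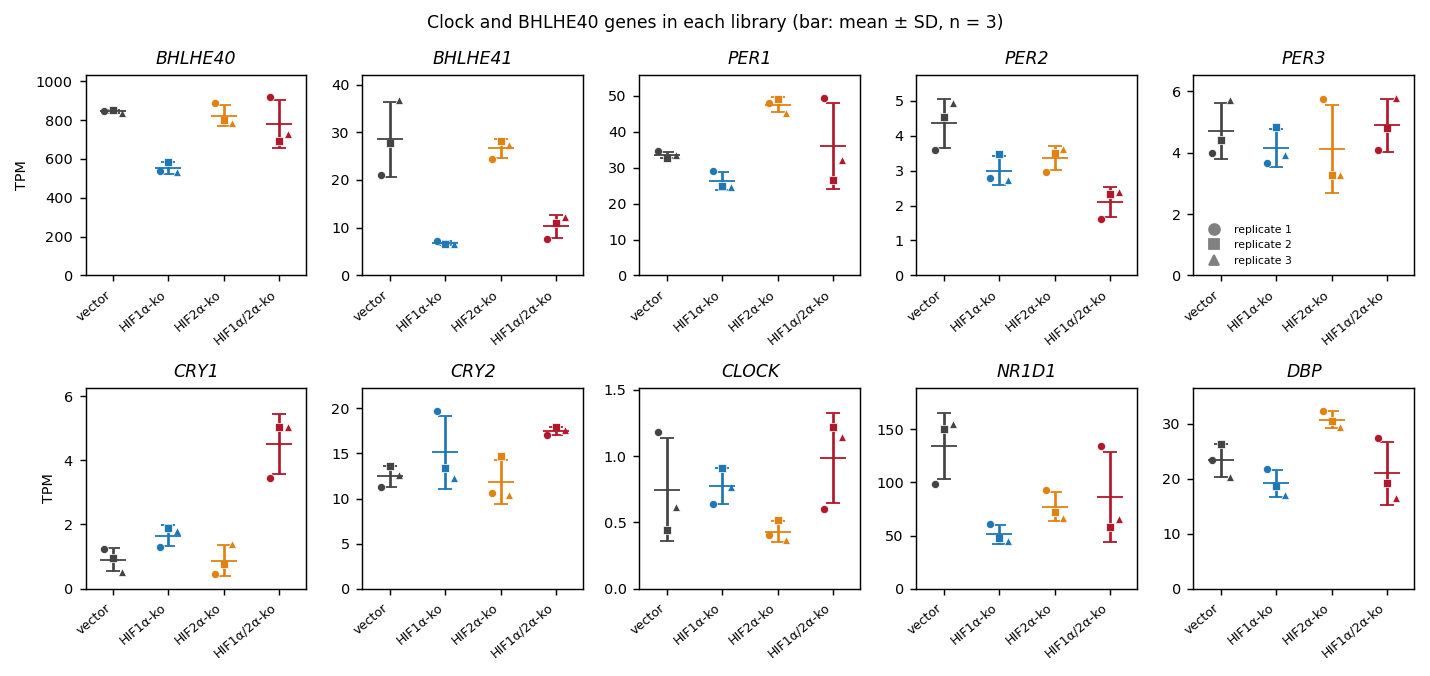
TPM of the 10 genes in each of the 12 libraries. Each panel is 1 gene with its own y axis starting at 0, symbols are replicates 1 to 3, and bars are the mean ± SD of 3 libraries. The HIF1α-ko libraries of BHLHE40 and BHLHE41 lie below all vector libraries, and the HIF1α/2α-ko libraries of CRY1 lie above all others.

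BHLHE40, BHLHE41 and NR1D1 were lower in HIF1α-ko than in vector, and no member passed the threshold in HIF2α-ko. In the dual knockout BHLHE41 and PER2 were lower than in vector and CRY1 was higher. With limma on log2(TPM + 1) and an adjusted p under 0.05, 0 of 10 members were higher and 3 were lower in HIF1α-ko than in vector, against 17.3% higher and 8.77% lower among all genes tested. At an unadjusted p under 0.05, CRY1 was higher there and PER2 joined those lower. For HIF2α-ko the counts were 0 higher and 0 lower, against 5.07% and 5.89%. At an unadjusted p under 0.05 there was 1 in each direction, PER1 higher and NR1D1 lower, and the median ratio and quantile scalings also called 0. For the dual knockout, 1 was higher and 2 were lower, against 31.8% and 14.8%. The median log2 fold change of the members was -0.31 with HIF1α targeted, -0.07 with HIF2α targeted and -0.04 with both targeted, beside medians of 0.18, -0.04 and 0.21 over all genes tested. Rescaling libraries by median ratios moved the medians of all genes to 0.01, -0.00 and -0.00, and the shares called in HIF1α-ko to 11% higher and 13.2% lower and in the dual knockout to 23.5% and 23%. Under that scaling PER2 was also lower in HIF1α-ko and NR1D1 in the dual knockout, and no call of a member against vector was lost.

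**Figure D3:**
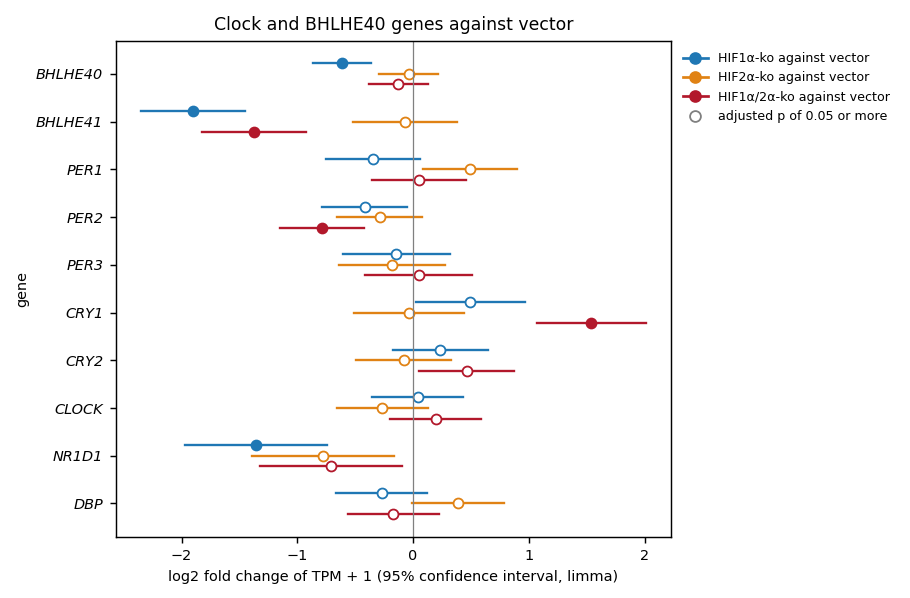
Change of each member in the 3 knockout groups against vector. The x axis is the log2 fold change of TPM + 1 with its 95% confidence interval from limma, and filled points have an adjusted p under 0.05. Filled points are BHLHE40, BHLHE41 and NR1D1 in HIF1α-ko and BHLHE41, PER2 and CRY1 in HIF1α/2α-ko.

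BHLHE40 (ENSG00000134107, chr3:4979116-4985323, plus strand in GENCODE 29 on GRCh38) encodes the repressor DEC1. It was measured at 845, 853 and 836 TPM in vector, at 539, 586 and 532 TPM in HIF1α-ko, at 887, 799 and 784 TPM in HIF2α-ko, and at 920, 690 and 725 TPM in the dual knockout. All 3 HIF1α-ko libraries lay below every other library, whereas the HIF2α-ko and the dual knockout libraries overlapped with vector. BHLHE40 fell by 0.61 ± 0.12 (SE) on the log2 scale in HIF1α-ko (adjusted p = 0.00335), to 65.4% of the vector mean. This call was kept in all 20 alternatives run, with log2 changes from -0.81 to -0.56. In HIF2α-ko the log2 fold change was -0.04 (95% interval -0.29 to 0.21, adjusted p = 0.873), and in the dual knockout it was -0.13 (-0.38 to 0.12, adjusted p = 0.387). BHLHE40 was thus higher in the dual knockout than in HIF1α-ko, by 0.48 (adjusted p = 0.00894), with no overlap of libraries. With median ratio scaling that difference was 0.43 and no longer passed (adjusted p = 0.0782).

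BHLHE41 (ENSG00000123095, chr12:26120026-26125127, minus strand) encodes DEC2, and it was lower in both groups with HIF1α targeted. It stood at 21.1, 27.8 and 36.7 TPM in vector, 7.18, 6.55 and 6.50 TPM in HIF1α-ko, 24.3, 28.2 and 27.4 TPM in HIF2α-ko, and 7.59, 10.96 and 12.3 TPM in the dual knockout. Both groups with HIF1α targeted lay wholly below the other two. BHLHE41 fell by 1.90 ± 0.21 on the log2 scale in HIF1α-ko (adjusted p = 0.000201) and by 1.38 ± 0.21 in the dual knockout (adjusted p = 0.000202), which left 23.6% and 36.0% of the vector mean. Neither call was lost in any of 20 alternatives. In HIF2α-ko the change was -0.07 (95% interval -0.52 to 0.38, adjusted p = 0.878). The dual-knockout libraries were all above the HIF1α-ko libraries, yet the difference of 0.52 missed the threshold (adjusted p = 0.0782). It passed with a block for the replicate number on the 3 knockout groups (adjusted p = 0.0207). BHLHE41 shares 162 exonic bases, 4.1% of its own, with SSPN on the opposite strand. Strand was not stated for the counting, so reads there cannot be assigned, and SSPN changed by -0.24 in HIF1α-ko (adjusted p = 0.385).

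The paralogues therefore differed in how far they fell, and their ratio within each library shows it without any scaling between libraries. BHLHE40 over BHLHE41 was 40, 30.7 and 22.7 in vector and 36.5, 28.3 and 28.6 in HIF2α-ko. It was 75.1, 89.5 and 81.8 in HIF1α-ko and 121, 62.9 and 58.9 in the dual knockout. Every library with HIF1α targeted exceeded every library without. The mean ratio was 31.1 ± 8.64 in vector and 82.1 ± 7.21 in HIF1α-ko (SD, n = 3). These ratios are given as a description and were not tested.

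**Figure D4:**
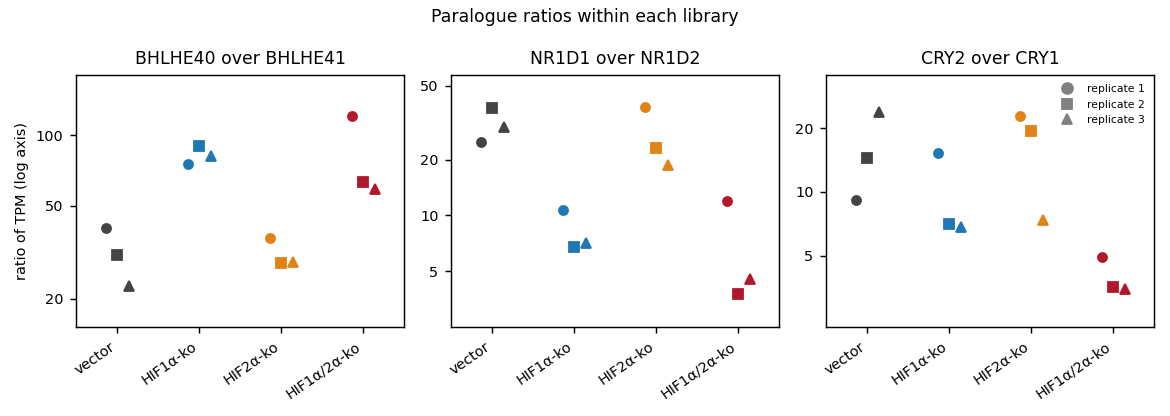
Ratios of TPM between paralogues within each library, on logarithmic y axes. Points are single libraries of the 4 groups. BHLHE40 over BHLHE41 is above 58 in the libraries with HIF1α targeted and at most 40 elsewhere, and NR1D1 over NR1D2 is at most 12 in the libraries with HIF1α targeted and above 18 elsewhere.

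NR1D1 (ENSG00000126368, chr17:40092787-40100725, minus strand) encodes REV-ERBα, the heme-binding nuclear receptor that represses BMAL1. It was listed at 98.4, 150 and 155 TPM in vector and at 61.1, 48.0 and 44.6 TPM in HIF1α-ko. The values were 93.0, 72.2 and 66.5 TPM in HIF2α-ko and 135, 58.5 and 65.6 TPM in the dual knockout. Neither single knockout overlapped with vector, while replicate 1 of the dual knockout stood far above its other libraries and inside the vector range. NR1D1 fell by 1.36 ± 0.28 on the log2 scale in HIF1α-ko (adjusted p = 0.00536), to 38.1% of the vector mean, and kept this call in all 20 alternatives. The changes of -0.78 in HIF2α-ko (adjusted p = 0.0998) and -0.71 in the dual knockout (adjusted p = 0.0571) missed the threshold. Without replicate 1 of the dual knockout they were -0.78 (adjusted p = 0.026) and -1.077 (adjusted p = 0.00199), and without replicate 1 of vector they were -0.99 (adjusted p = 0.0382) and -0.92 (adjusted p = 0.026). Of the exonic bases of NR1D1, 9.49% are shared with THRA on the opposite strand, and THRA changed by -0.21 in HIF1α-ko (adjusted p = 0.514).

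NR1D2, the REV-ERBβ paralogue, did not follow NR1D1. Mean levels were 4.37 ± 0.702 TPM for vector, 6.38 ± 0.689 TPM for HIF1α-ko, 3.03 ± 0.569 TPM for HIF2α-ko and 13.8 ± 2.28 TPM in the dual knockout. NR1D2 rose in the dual knockout by 1.45 ± 0.18 on the log2 scale (adjusted p = 5.04e-05). The ratio of NR1D1 to NR1D2 ran from 24.7 to 38.0 in vector, 18.7 to 38.3 in HIF2α-ko, 6.75 to 10.6 in HIF1α-ko and 3.76 to 12 in the dual knockout. As with the BHLHE pair, libraries with and without HIF1α targeted did not overlap in this ratio.

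DBP (ENSG00000105516, chr19:48630030-48637438, minus strand) encodes a PAR bZIP activator of clock output genes. It was measured at 23.5, 26.3 and 20.4 TPM in vector, 21.9, 18.6 and 17.0 TPM in HIF1α-ko, 32.4, 30.4 and 29.4 TPM in HIF2α-ko, and 27.4, 19.2 and 16.4 TPM in the dual knockout. The HIF2α-ko libraries were the highest of the 12, and the other 3 groups overlapped. No change against vector passed, with log2 changes of -0.27 for HIF1α-ko (adjusted p = 0.28), 0.39 for HIF2α-ko (adjusted p = 0.195) and -0.17 in the dual knockout (adjusted p = 0.461). Against HIF2α-ko, DBP was lower in HIF1α-ko (-0.66, adjusted p = 0.0209) and in the dual knockout (-0.56, adjusted p = 0.0243). Each of these 2 calls was lost when any of 4 libraries was left out: replicates 2 and 3 of HIF1α-ko or 1 and 2 of HIF2α-ko for the first (adjusted p from 0.0557 to 0.0853), and replicates 1 and 2 of HIF2α-ko or 2 and 3 of the dual knockout for the second (0.0573 to 0.115). DBP shares 10.1% of its exonic bases with SPHK2 on the opposite strand, and SPHK2 changed by 0.34 in HIF1α-ko (adjusted p = 0.172).

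PER1 (ENSG00000179094, chr17:8140472-8156506, minus strand) is the period gene that responds most directly to acute signals such as glucocorticoids and cAMP. Its levels were 34.5, 32.8 and 33.5 TPM in vector, 29.2, 24.8 and 24.7 TPM in HIF1α-ko, 48.1, 49.3 and 45.4 TPM in HIF2α-ko, and 49.5, 26.6 and 32.1 TPM in the dual knockout. The single knockouts lay on opposite sides of vector with no overlap, and replicate 1 of the dual knockout again stood above its group. The changes of -0.35 in HIF1α-ko (adjusted p = 0.181) and 0.49 in HIF2α-ko (adjusted p = 0.114) did not pass. Without replicate 1 of the dual knockout, which enters the shared estimate of the spread, they passed at adjusted p = 0.0484 and 0.024. Between the single knockouts PER1 was lower in HIF1α-ko (-0.84 ± 0.19, adjusted p = 0.00734), a call kept when each library was left out in turn. PER1 was the member whose levels most resembled those of DBP, with a Pearson r of 0.87 over the 12 libraries.

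PER2 (ENSG00000132326, chr2:238244038-238290102, minus strand), a core repressor of the loop, was lowest where both HIF subunits were targeted. Its values were 3.59, 4.54 and 4.95 TPM in vector, 2.78, 3.47 and 2.74 TPM in HIF1α-ko, 2.97, 3.51 and 3.61 TPM in HIF2α-ko, and 1.61, 2.32 and 2.39 TPM in the dual knockout. The dual-knockout libraries lay below all the other libraries, and the HIF1α-ko libraries lay below vector. PER2 fell by 0.79 ± 0.17 on the log2 scale in the dual knockout (adjusted p = 0.00225), to 48.3% of the vector mean, and kept that call in all 19 alternatives that tested it. For HIF1α-ko limma gave -0.42 (adjusted p = 0.0838). With median ratio scaling it was -0.57 (adjusted p = 0.0134), and without replicate 1 of vector -0.53 (adjusted p = 0.0323). The dual knockout was also lower than HIF2α-ko (-0.50, adjusted p = 0.0286), a call which was lost without replicate 2 or 3 of HIF2α-ko or replicate 1 of the dual knockout (adjusted p from 0.0783 to 0.0888).

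PER3 (ENSG00000049246, chr1:7784320-7845177, plus strand), the least essential period gene for rhythm in mice, passed in none of the 7 comparisons. It ranged from 3.98 to 5.71 TPM in vector, 3.66 to 4.84 TPM in HIF1α-ko, 3.27 to 5.76 TPM in HIF2α-ko and 4.07 to 5.79 TPM in the dual knockout. The 4 groups overlapped, and the log2 changes against vector were -0.14, -0.18 and 0.05 with 95% intervals that reached from -0.64 at the lowest to 0.51 at the highest. PER3 shares 10.7% of its exonic bases with UTS2 on the opposite strand, which was too low to be tested. The ratio of PER1 to PER2 within libraries averaged 7.87 ± 1.54 for vector, 8.89 ± 1.68 for HIF1α-ko, 14.25 ± 1.81 for HIF2α-ko and 18.6 ± 10.6 in the dual knockout (SD, n = 3).

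CRY1 (ENSG00000008405, chr12:106991364-107093829, minus strand) encodes the cryptochrome that represses CLOCK and BMAL1 most strongly, and it was the only member called higher than vector in any knockout. It was listed at 1.23, 0.944 and 0.528 TPM in vector, 1.299, 1.88 and 1.79 TPM in HIF1α-ko, 0.464, 0.754 and 1.40 TPM in HIF2α-ko, and 3.44, 5.04 and 5.04 TPM in the dual knockout. The dual-knockout libraries lay above all the others, and the HIF1α-ko libraries lay above vector by a small margin. CRY1 rose in the dual knockout by 1.54 ± 0.22 on the log2 scale (adjusted p = 0.000135), a ratio of mean TPM of 5.01. CRY1 in the dual knockout exceeded HIF1α-ko by 1.04 (adjusted p = 0.00398) and HIF2α-ko by 1.57 (adjusted p = 0.000118). None of these 3 calls was lost when a library was left out. The HIF1α-ko value against vector was 0.49 (95% interval 0.02 to 0.97, adjusted p = 0.11), and in HIF2α-ko it was -0.03 (-0.51 to 0.44, adjusted p = 0.944). The mean level of CRY1 in vector was below 1 TPM, where a log2 change with a pseudocount of 1 is compressed: with 0.1 in its place the dual-knockout change was 2.25.

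CRY2 (ENSG00000121671, chr11:45847118-45883248, plus strand) was the more abundant cryptochrome in every library. It stood at 11.2, 13.6 and 12.6 TPM in vector, 19.7, 13.4 and 12.2 TPM in HIF1α-ko, 10.6, 14.7 and 10.3 TPM in HIF2α-ko, and 17.0, 17.9 and 17.6 TPM in the dual knockout. The dual-knockout libraries were above all vector and HIF2α-ko libraries, but 1 HIF1α-ko library was higher still. The change against vector of 0.46 missed the threshold (adjusted p = 0.0623), and the difference from HIF2α-ko of 0.54 passed it (adjusted p = 0.033). The latter was 0.26 with median ratio scaling (adjusted p = 0.327) and was lost without replicate 1 or 3 of HIF2α-ko or replicate 2 or 3 of the dual knockout (adjusted p from 0.0792 to 0.114). CRY2 over CRY1 averaged 15.8 ± 7.43 in vector and 4.0 ± 0.827 in the dual knockout, with no overlap between those libraries.

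CLOCK (ENSG00000134852, chr4:55427903-55547138, minus strand), the activating subunit of the loop, was the scarcest member. Values were 1.18, 0.441 and 0.618 TPM in vector, 0.642, 0.914 and 0.765 TPM in HIF1α-ko, 0.403, 0.521 and 0.368 TPM in HIF2α-ko, and 0.599, 1.22 and 1.14 TPM in the dual knockout. Every knockout group overlapped with vector, and no comparison passed. CLOCK shares 76 exonic bases, 0.646% of its own, with TMEM165 on the opposite strand, and TMEM165 was higher in HIF1α-ko (1.28, adjusted p = 0.0141) and with both targeted (1.45, adjusted p = 0.00307). The difference between the dual knockout and HIF2α-ko, whose libraries did not overlap, was 0.46 (adjusted p = 0.0528), and it passed with a block for the replicate number on the knockout groups (adjusted p = 0.0128). NPAS2, which can replace CLOCK as partner of BMAL1, was more abundant than CLOCK in each library, at 33.0 ± 3.45 TPM in vector.

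The single knockouts were then compared with each other and with the dual knockout. These comparisons share their knockout libraries with those against vector. HIF1α-ko was lower than HIF2α-ko for BHLHE40 (-0.57, adjusted p = 0.00464), for BHLHE41 (-1.83, adjusted p = 9.64e-05), and for PER1 and DBP as given above. That made 4 of 10 members lower and 0 higher, against 7.37% lower and 17.8% higher among all genes tested. At an unadjusted p under 0.05 1 member, CRY1, was higher. With the replicate block on the knockout groups CRY1 was also called higher, by 0.53 (adjusted p = 0.0133), and NR1D1 lower (-0.58, adjusted p = 0.0187). Between the dual knockout and HIF1α-ko, BHLHE40 and CRY1 were higher and 0 members were lower, against 17.7% higher and 10.6% lower. At an unadjusted p under 0.05 PER2 was lower there, and the replicate block called it lower (-0.37, adjusted p = 0.0336) and NR1D1 higher by 0.65 (adjusted p = 0.0117). Between the dual knockout and HIF2α-ko, CRY1 and CRY2 were higher and BHLHE41, PER2 and DBP were lower, that is 2 and 3 of 10 members against 33.5% and 12.9%. BHLHE41 was lower there (-1.31, adjusted p = 0.000299). PER1, at -0.44 (adjusted p = 0.0721), passed with the replicate block (adjusted p = 0.0398).

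Whether the dual knockout equalled the sum of the single knockouts on the log2 scale was tested by the interaction term. It was positive for 3 of 10 members and negative for 0, against 13.2% and 7.35% of all genes tested. BHLHE40 had an interaction of 0.52 ± 0.17 (adjusted p = 0.0419): single changes of -0.61 and -0.04 stood beside a dual change of -0.13. For NR1D1 it was 1.43 ± 0.40 (adjusted p = 0.0261), from single changes of -1.36 and -0.78 and a dual change of -0.71. CRY1 had 1.079 ± 0.31 (adjusted p = 0.0281), from 0.49 and -0.03 to 1.54. No negative interaction was called here or under either other scaling, and none had an unadjusted p under 0.05. Median ratio scaling and no filter each left 1 positive call, that of CRY1. Under median ratio scaling BHLHE40 had 0.42 (adjusted p = 0.241) and NR1D1 1.32 (adjusted p = 0.072). The 3 calls depended on single libraries: leaving out 1 lost that of BHLHE40 in 9 of 12 cases, of CRY1 in 7 and of NR1D1 in 6, with the largest adjusted p among these at 0.0965, 0.0679 and 0.0643. For BHLHE41 the interaction was 0.59 (adjusted p = 0.172).

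The other transcription factors of the loop showed both directions. Of 11 listed, 9 were tested, and HLF and RORB stayed at or below 0.122 TPM in every library. In HIF1α-ko, where 17.3% of all genes tested were higher and 8.77% lower, 0 were higher and 2 lower, CIART (-1.44, adjusted p = 0.00322) and RORA (-1.07, adjusted p = 0.00571). CIART is a repressor of CLOCK and BMAL1, and RORA an activator of BMAL1. Their means fell from 25.6 to 8.80 TPM and from 17.1 to 7.55 TPM. In HIF2α-ko 0 were higher and 1 lower, beside 5.07% and 5.89% of all genes tested. The 1 lower was NFIL3, a bZIP repressor that opposes DBP at D-boxes (-1.25, adjusted p = 0.00953). NFIL3 was measured at 43.8, 81.3 and 95.8 TPM in vector and at 24.8, 31.0 and 31.3 TPM in HIF2α-ko, without overlap. The median over the 9 genes was -0.22 for HIF1α-ko and -0.23 for HIF2α-ko, beside 0.18 and -0.04 over all genes tested.

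In the dual knockout, 3 of the 9 factors were higher and 3 lower, beside 31.8% and 14.8% of all genes tested, so the share higher was near that background. Those higher were NR1D2, BMAL1 by 0.96 (adjusted p = 0.00735) and NPAS2 by 0.77 (adjusted p = 0.0454). BMAL1, the obligate partner of CLOCK, stood at 4.12, 3.33 and 4.52 TPM in vector, 5.11, 9.02 and 7.51 TPM in HIF1α-ko, 3.07, 4.52 and 5.19 TPM in HIF2α-ko, and 5.99, 9.80 and 10.9 TPM in the dual knockout. Both groups with HIF1α targeted lay above vector, although the HIF1α-ko change of 0.70 missed the threshold (adjusted p = 0.0563). Those lower were CIART (-1.19, adjusted p = 0.00332), RORA (-0.88, adjusted p = 0.00712) and NFIL3 (-0.72, adjusted p = 0.0335). The NPAS2 call was lost under both other scalings (0.53, adjusted p = 0.089, and 0.58, adjusted p = 0.0906). Leaving out single libraries lost the calls of NPAS2 and NFIL3, with changes down to 0.50 without replicate 3 of the dual knockout (adjusted p = 0.197) for NPAS2 and -0.49 without replicate 3 of vector (adjusted p = 0.143) for NFIL3. NR1D2 had an interaction of 1.41 (adjusted p = 0.00339).

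**Figure D5:**
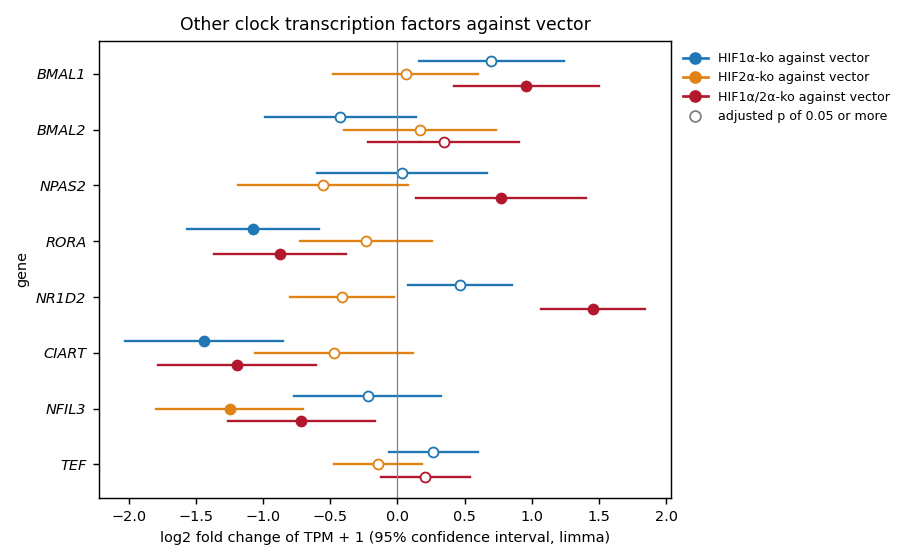
Change of 8 other clock transcription factors in the 3 knockout groups against vector. The x axis is the log2 fold change of TPM + 1 with its 95% confidence interval from limma, and filled points have an adjusted p under 0.05. CIART and RORA lie to the left in both groups with HIF1α targeted, and NR1D2 lies farthest to the right in HIF1α/2α-ko.

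The transcripts of 14 proteins that modify, partner or turn over the clock repressors were also tested. Among them, HIF1α-ko had 1 higher and 1 lower, beside 17.3% and 8.77% of all genes tested. The ubiquitin ligase adaptor BTRC was higher by 1.25 (adjusted p = 0.0344), and the PER partner NONO was lower (-0.50, adjusted p = 0.0089). BTRC lost this call without replicate 2 or 3 of vector or of HIF1α-ko (adjusted p from 0.108 to 0.121). Its mean level was low, at 1.53 TPM in vector and 4.94 TPM in HIF1α-ko. In HIF2α-ko 0 were higher and 1 lower, beside 5.07% and 5.89% of all genes tested. NONO was the 1 lower (-0.53, adjusted p = 0.0142), and with median ratio scaling this call was lost (-0.47, adjusted p = 0.069). In the dual knockout 8 were higher and 3 lower, with a median log2 change of 0.58, where 31.8% of all genes tested were higher and 14.8% lower, with a median of 0.21. The largest rises were FBXW11, a relative of BTRC, by 1.34 (adjusted p = 0.00198) and the PER kinase CSNK1E by 0.99 (adjusted p = 0.00283). Those lower included the deubiquitinase USP2 (-0.62, adjusted p = 0.00943) and NONO (-0.47, adjusted p = 0.00533). USP2 was close to the limit of what was measured, with means of 1.25 TPM in vector and 0.472 TPM in the dual knockout. With median ratio scaling the counts were 6 higher and 3 lower, beside 23.5% and 23% of all genes tested.

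Known hypoxia genes were read beside the same shares of all genes tested, which were 17.3% higher and 8.77% lower for HIF1α-ko, 5.07% higher and 5.89% lower for HIF2α-ko, and 31.8% higher and 14.8% lower with both targeted. Of 10 markers, HIF1α-ko had 0 higher and 5 lower, the largest falls being BNIP3 (-3.76, adjusted p = 1.97e-06) and PFKFB4 (-2.56, adjusted p = 3.28e-06). HIF2α-ko had 2 higher and 0 lower, ANKRD37 by 1.299 (adjusted p = 0.0057) and PFKFB4 by 0.81 (adjusted p = 0.00922). The dual knockout had 0 higher and 8 lower, led by BNIP3 (-2.83, adjusted p = 1.56e-06) and CA9 (-2.45, adjusted p = 1.52e-06). BNIP3 was also among the 3 genes whose levels were most like those of BHLHE41.

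Likeness was measured as Pearson r of log2(TPM + 1) over the 12 libraries among 8011 genes with a mean of at least 5 TPM, and is a description without a test, since libraries share groups and scaling. BHLHE41 was most like FAM216A (0.985), CEP250 (0.985) and BNIP3 (0.980). BHLHE40 was most like FOSL1 (0.939), GPRC5A (0.939) and TBX3 (0.933). For NR1D1 the nearest were EVC (0.985), CPEB1 (0.965) and ELK1 (0.964), and for CRY1 they were APIP (0.979), HSPA4 (0.979) and RGS20 (0.977). PER3 had the weakest match of the 10, at 0.834 with MATR3. Among members, BHLHE40 correlated with NR1D1 at 0.814 and with BHLHE41 at 0.702, and CRY1 ran opposite to PER2 at -0.736.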

How the data were processed

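Messenger RNA of 12 U-87 MG libraries was sequenced, 3 in each of 4 groups taken from the treatment labels. Knockout columns carry the code and number of their titles, and the vector columns, headed by another letter, were matched to the control titles by their number and the absence of a knockout code. The authors deposited TPM values, normalised for transcript length and library size, for 20263 genes, and the columns sum to between 999955 and 999982. The submitters' processing notes name FastQC 0.11.2, Trimmomatic 0.36, HISAT2 2.0, bedtools 2.26.0 and GRCh38 with no roles. The program that counted genes, its annotation and its strand setting are not given in the sources used here. Since TPM keeps no depth, no counting interval could be given.

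Genes with at least 1 TPM in at least 3 libraries (11731) were tested with limma 3.58.1 in R 4.3.3 on log2(TPM + 1), with a mean-variance trend and all 4 groups in 1 model. Adjusted p-values are Benjamini-Hochberg over all genes tested within each of 7 comparisons, with a threshold of 0.05, and intervals are 95%. The script was tested on simulated data. Alternatives were a pseudocount of 0.1, no filter, a mean of at least 5 TPM, median ratio scaling, quantile normalization, no trend, only the groups compared, a block for the replicate number and leaving out each library. The block restricted to the 3 knockout groups was chosen after seeing the data.

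Among the knockout groups, same-numbered libraries departed from their group means together (Pearson r from 0.196 to 0.508 over 9 pairs) but not between vector and the knockouts (-0.0265 to 0.163). The pairing comes from these values alone, as no label explains the numbers. No libraries were identical.

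Every member was named. From the other gene lists, the counts in each direction and the 2 largest rises and falls against vector were named, and any of the other clock transcription factors could be. Some genes of these lists count in the totals but are not reported here by name. For each member, up to 3 genes of the most similar levels could be named. The members and lists were chosen with earlier results of these data known. Gene positions are from GENCODE 29 and promoters from RefSeq. Figures used matplotlib 3.10.9.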

Additional observations from a re-analysis of the deposited data

Results flagged for a closer look

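For 3 members limma's interaction term, which asks whether the change with HIF2α targeted differs with the state of HIF1α, passed the threshold in the model as reported. The interaction was 0.52 for BHLHE40 (adjusted p = 0.0419), 1.079 for CRY1 (adjusted p = 0.0281) and 1.43 for NR1D1 (adjusted p = 0.0261) on the log2 scale. These calls were lost in 12 of 19, 8 of 18 and 8 of 19 alternatives, and median ratio scaling and no filter each left that of CRY1 alone. In NR1D1 and BHLHE40, replicate 1 of the dual knockout was the highest library of its group, at 135 and 920 TPM. Without that library the interaction was 0.40 for BHLHE40 and 1.06 for NR1D1. These were the lowest values of the 12 cases with 1 library left out. Why that library stood higher was not tested.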

How the results depend on the processing

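Over the 10 members and 7 comparisons, 1307 alternative values kept their side of the threshold, 46 lost a call, 39 gained one, and none of the called values changed sign. The falls of BHLHE40, BHLHE41 and NR1D1 in HIF1α-ko and the changes of BHLHE41, PER2 and CRY1 in the dual knockout were never lost, except that CRY1 and PER2 were not tested with a mean of at least 5 TPM, which left 0 members higher and 1 lower in the dual knockout against vector. That filter also left 1 member higher in the dual knockout than in HIF1α-ko and 1 than in HIF2α-ko, since CRY1 was not tested under it. Median ratio scaling left 1 higher in each of these comparisons and 1 positive interaction, and no filter left 1 positive interaction; the cause was not tested. In HIF2α-ko against vector 1286 genes were called, 474 with only the 2 groups and 2068 with the replicate block.

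The replicate block on the knockout groups raised the genes called from 2949 to 5927 between the single knockouts, with 1 member higher, and from 3322 to 5684 between the dual knockout and HIF1α-ko, with 4 members higher and 1 lower. On all 4 groups the block called PER2 lower in HIF1α-ko (adjusted p = 0.035).

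Leaving out 1 library gave these ranges. Against vector, HIF1α-ko had 3 to 4 members lower and 1552 to 4194 genes called, HIF2α-ko 0 to 1 higher, 0 to 1 lower and 471 to 2497 genes, and the dual knockout 1 to 2 higher, 2 to 3 lower and 4319 to 5961 genes. HIF1α-ko against HIF2α-ko had 0 to 1 higher, 3 to 5 lower and 1451 to 3746 genes. The dual knockout had 2 to 3 higher and 2310 to 4072 genes against HIF1α-ko, and 1 to 3 higher, 1 to 3 lower and 4237 to 6004 genes against HIF2α-ko. The interaction had 0 to 4 positive and 1542 to 3564 genes.

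Shares of all genes called higher and lower moved with scaling. They were 17.8% and 7.37% between the single knockouts and 8.81% and 11.2% with median ratios, 33.5% and 12.9% between the dual knockout and HIF2α-ko and 22.6% and 21.8% with median ratios, and 17.7% and 10.6% between the dual knockout and HIF1α-ko and 15.5% and 15.6% with quantiles. The interaction went from 13.2% and 7.35% to 11.5% and 11.2% with quantiles. Levels near 1 TPM, as for CRY1 and CLOCK, limit what can be detected.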
